A study of Saccharomyces cerevisiae with 10 samples.

Results

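Among the genes measured in sorted yeast subpopulations, 55 that encode biosynthetic enzymes or transporters of amino acids, together with the transcription factor gene GCN4, were taken as one module. They were chosen by name from the pathway each serves, and the rule used no measured value. HIS3, LEU2, MET17 and URA3, the genes by which laboratory strains are commonly marked, were left out. All 56 were found among the 7252 genes of the count table, and all 56 were among the 6492 genes that passed the filter on low counts and were tested. By pathway they were 6 arginine genes, 4 histidine, 3 leucine, 7 isoleucine and valine, 7 lysine, 8 tryptophan and aromatic, 5 threonine and homoserine, 7 methionine and cysteine, 5 serine and one-carbon, and 3 asparagine and glutamate genes, besides GCN4.

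In yeast, Gcn4 is the activator of general amino acid control. When a tRNA lacks its amino acid, the kinase Gcn2 phosphorylates the translation initiation factor eIF2, and translation of GCN4 messenger RNA rises through short reading frames in its leader, so that much of its regulation is not seen in its transcript level. Gcn4 binds the sequence TGACTCA before the genes of most amino acid pathways. The sulfur pathway, which assimilates sulfate into methionine and cysteine, is regulated mainly by Met4 with Cbf1, which binds CACGTG, while Leu3 binds an element of its own before genes of branched-chain synthesis.

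The cells were a prototrophic derivative of BY4741, a MATa laboratory strain of Saccharomyces cerevisiae with the alleles met15Δ0, ura3Δ0, his3Δ1 and leu2Δ0, that carried sfGFP under the RPL28 promoter as a growth marker. The study used versions restored to prototrophy by a minichromosome or by integration, and the sources used here do not say which was sequenced. Cultures were grown for 4 h in rich YPD medium, washed, held for 1 h in nitrogen-limited medium with 0.8 mM proline as nitrogen source (NLIM-PRO), and sorted by fluorescence and side scatter into a low and a high subpopulation, with budding cells and doublets gated out. The low group comprised 5 libraries, of which the study used 3 (L1_2609, L2_2709 and L_2909) and left out 2 (L2_2609 and L1_2709), and the high group comprised 5 (H1_2609, H2_2609, H1_2709, H2_2709 and H_2909). The study removed L2_2609 and L1_2709 as outliers in a principal component analysis. Both groups shared strain, medium and time, so every difference below is between 2 sorted fractions of shifted cultures and none is between shifted and unshifted cells. In bulk samples of this kind, fewer cells with a transcript and less transcript per cell cannot be told apart.

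Library totals were 18977794 to 23644299 counts in the 3 low libraries used, 21503922 and 15879779 in the left-out low libraries, and 22167864 to 27752702 in the high libraries. Genes at 0 counts numbered 983 to 1552 per low library, against 383 to 511 per high library, and genes at 1 to 9 counts 28 to 47 per low library, against 275 to 345 per high library. Cell cycle markers separated the fractions. The summed level of 12 G2 and M phase genes was 189 to 327 CPM (counts scaled to a common library total by the trimmed mean of M values, TMM) in the used low libraries, against 1441 to 2015 CPM in high libraries, and all 12 were lower in low in the test described below. Daughter-cell genes summed to 2280 to 3038 CPM in low, against 755 to 1281 CPM in high, with 3 of 9 higher and 1 lower. CTS1 was the largest part of the sum, at 1330, 1669 and 1492 CPM in the used low libraries. The log2 fold changes of low over high were 2.13 for DSE1, 2.50 for DSE2 and 2.41 for CTS1, but -1.79 for EGT2. DSE3, DSE4, SCW11, AMN1 and ASH1 ran from -0.31 (ASH1) to 0.60 (SCW11) and were not called. The cytokinesis genes HOF1 and CHS2 stood at -4.37 and -2.94. Of the mating-type genes, the a-cell receptor gene STE2 had 170 to 509 CPM in the 10 libraries, and the alpha-cell receptor gene STE3 had at most 8.99 CPM. Not every gene of these lists went this way, since SAG1 of the alpha list had 41.8 to 107 CPM and AGA2 of the a list 2.62 to 52.9 CPM. Of 6 a-cell genes edgeR called 0 and DESeq2 called STE2 and MFA2. At an unadjusted p under 0.05 in edgeR 4 of the 6 were higher in low, where 1143 of 6492 genes had such a p. Of 4 alpha-cell genes neither tool called any. The 4 strain marker genes summed to 879 to 1820 CPM in the used low libraries, against 743 to 2659 CPM in high libraries, and none was called by edgeR (1 at an unadjusted p under 0.05) or DESeq2. HIS3, LEU2 and MET17 were each lowest of their groups in L_2909, at 287, 323 and 227 CPM, and in H_2909, at 392, 194 and 110 CPM. URA3 was not, at 41.7 CPM in L_2909 and 46.9 CPM in H_2909. Whether the difference in cell cycle stage has a part in any value of the amino acid genes was not tested.

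The module was well expressed. Its genes had a median FPKM (fragments per kilobase of gene, scaled to library size) of 187 over the 10 libraries, against 46.2 for all genes tested, and 28 of the 56 ranked among the top 1000 of the 7252 genes. MET6, the cobalamin-independent methionine synthase that makes methionine from homocysteine, was the highest at 1684 FPKM and rank 66. CPA1, the small subunit of the arginine-specific carbamoyl phosphate synthetase, followed at 788 FPKM. CYS3 at 673 FPKM, MET14 at 621, CYS4 at 593 and GCN4 at 551 came next. At the low end stood LYS2 at 36.6 FPKM, ARG8 at 28.5, SER2 at 21.8 and LEU9 at 7.94 (rank 5692). LEU9, the second alpha-isopropylmalate synthase, was the only member with a library at 0 counts.

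Sequence before the coding regions is shown for the 5 genes in which H_2909 stood furthest above the other high libraries and for 3 sulfur genes. The window searched was 300 bases long, from 350 to 51 bases before the start codon, in the R64 genome, whose coordinates for all 56 genes equal those of the count table. TGACTCA, on either strand, was present in 27 of 56 windows, against 168 of 5980 protein-coding genes searched, or 2.81%. The core TGACTC, which lies within it and is also read by Bas1, was in 37 of 56, against 8.06% of all. Capitals mark TGACTCA, its core or the Leu3 motif on either strand. In the order given, the stretches are at chrXV:218861-218953 (plus strand), chrIII:68515-68599 (minus), chrVII:478849-478964 (minus), chrVIII:517350-517405 (plus) and chrXVI:822382-822410 (plus), each read 5′ to 3′ on the strand of its gene.
ARG1: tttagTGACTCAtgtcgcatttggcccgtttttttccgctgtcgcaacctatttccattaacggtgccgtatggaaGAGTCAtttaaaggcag
HIS4: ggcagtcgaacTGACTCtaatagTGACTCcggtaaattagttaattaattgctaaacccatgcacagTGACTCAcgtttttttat
LEU1: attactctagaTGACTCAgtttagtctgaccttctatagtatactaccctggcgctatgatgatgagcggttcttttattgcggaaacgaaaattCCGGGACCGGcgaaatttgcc
BAT1: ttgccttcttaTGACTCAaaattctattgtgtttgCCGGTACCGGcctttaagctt
ASN1: catgtaacattTGACTCAttctgtaaact

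LEU1 and BAT1 were the only members whose window held the Leu3 motif (CCGG, a pair of any bases, then CCGG), which 8 of the 5980 windows hold (0.134%). CACGTG was in 8 of 56 windows, against 4.03% of all, and 3 of the 8 were sulfur genes, shown here because the sulfur genes included the members nearest to the threshold between low and high. MET14 lies on the minus strand of chromosome XI with the stretch at chrXI:439597-439624, CYS3 on the plus strand with chrI:130572-130599, and MET16, the only sulfur gene whose window also held TGACTCA, on the minus strand with chrXVI:877763-877821. Capitals mark CACGTG and TGACTCA.
MET14: gccactaatttCACGTGatcaatatatt
CYS3: aattagccattCACGTGatctcagccag
MET16: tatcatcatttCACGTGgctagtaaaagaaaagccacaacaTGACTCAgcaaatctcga
None of the 4 motifs was in the windows of MET2, MET3 or GCN4. A match is a description of letters in this window, and its absence says nothing of the factor.

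The first comparison asked whether sorted low cells differed from high cells in these genes 1 h into the shift. With edgeR's quasi-likelihood test and Benjamini-Hochberg adjustment over 6492 genes, 0 of the 56 passed an adjusted p of 0.05, here termed called, in the 3 low and 5 high libraries. Over all genes 335 were called, a background of 5.16%. At an unadjusted p under 0.05 there were 3 of 56 members, against 1143 of the 6492 genes. The 3 were MET3, MET2 and CYS3, all of the sulfur pathway and all higher in low. This fit did not pair libraries. With libraries of the same code paired in a replicate block, 15 members had an unadjusted p under 0.05 in edgeR, 9 higher and 6 lower in low. In that fit 861 of the 6492 genes did, and 1 member was called. DESeq2 called 1 member, MET3, against a background of 9.88%. The fitted log2 fold change of low over high was positive in 20 members and negative in 36, with a median of -0.14, against -0.024 over all genes tested. This median depended on H_2909 and L_2909, being 0.19 without H_2909, -0.34 without L_2909 and -0.076 without both. In number, 42 members were positive without H_2909 and 11 without L_2909.

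**Figure D1:**
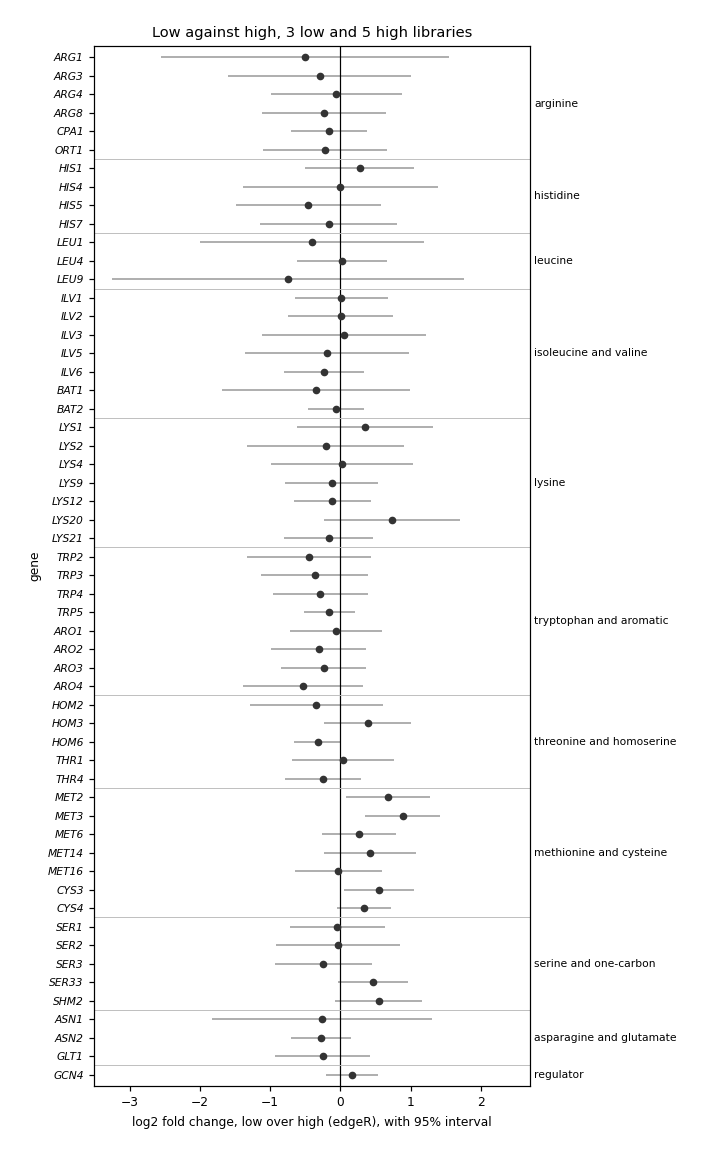
Log2 fold change of low over high for each of the 56 genes (horizontal axis; points, edgeR estimates; lines, 95% intervals), grouped by pathway down the page, from 3 low and 5 high libraries. All intervals but those of MET2, MET3 and CYS3 include 0.

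GCN4 transcript itself differed little between the fractions. It had 452, 512 and 571 CPM in the used low libraries, against 398, 469, 370, 463 and 579 CPM in the high libraries, and 522 and 469 CPM in the left-out low libraries. The groups overlapped throughout, with the highest values in L_2909 and H_2909. The mean was 511 ± 59.4 CPM (SD, n = 3) in the low and 456 ± 80.7 CPM (SD, n = 5) in the high libraries. The log2 fold change was 0.16 with a 95% interval of -0.20 to 0.53 (adjusted p = 0.68, edgeR). Since Gcn4 is regulated at translation, these values say nothing of its protein.

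The methionine and cysteine genes held the members nearest to the threshold. Of the 7, 6 had a positive log2 fold change, with a pathway median of 0.42, while the medians of the other 9 enzyme pathways lay between -0.40 and -0.033. MET3, the ATP sulfurylase that activates sulfate, had 616, 604 and 572 CPM in the used low libraries, against 216, 511, 274, 283 and 328 CPM in high libraries. The left-out low libraries had 951 and 442 CPM. MET3 was the only member whose used low libraries all lay above all high libraries, 1 of 56 against a background of 4.93%, and no member had all used low libraries below all high, against a background of 10.6%. With the left-out libraries the groups overlapped, since 442 CPM in L1_2709 lay below 511 CPM in H2_2609. Its mean was 597 ± 22.8 CPM (SD, n = 3) in low libraries and 322 ± 113 CPM (SD, n = 5) in high ones.

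MET3 had a log2 fold change of 0.89 with an SE of 0.24 and a 95% interval of 0.35 to 1.42 (adjusted p = 0.068, edgeR). With libraries of the same code paired in a replicate block it was 1.13 (adjusted p = 0.025), in a fit that called 97 genes, a background of 1.49%. In that fit H2_2609 and H1_2709 had no low partner, so the estimate rested on 3 pairs and not on these libraries. With DESeq2 the log2 fold change was 0.90 (adjusted p = 0.011), and over all 10 libraries 0.98 (adjusted p = 0.048), where the background was 3.55%. Without H2_2609, the high library with most MET3, it was called at 1.12 (adjusted p = 0.0082), and over all alternatives its adjusted p ran between 0.0032 and 0.18. A replicate block over all 10 libraries included the 2 low libraries that the study left out. The codes did not pair these 10 libraries, with a lowest same-code correlation of 0.0162. In that fit 4 members were called, all higher in low and all of this pathway, against a background of 3.89%. They were MET3 at 1.00 (adjusted p = 0.0032), MET2 at 0.71 (adjusted p = 0.021), CYS3 at 0.70 (adjusted p = 0.023) and MET14 at 0.71 (adjusted p = 0.025, edgeR in each case).

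MET2, the homoserine O-acetyltransferase that opens the branch from homoserine to methionine, had 572, 412 and 548 CPM in used low libraries, against 515, 338, 259, 216 and 264 CPM in high libraries. Low stood above high except that H1_2609 exceeded L2_2709. Its log2 fold change was 0.68 with a 95% interval of 0.088 to 1.28 (adjusted p = 0.21, edgeR), and without H1_2609 it was called at 0.93 (adjusted p = 0.030). Its counts are uncertain, because YNL276C overlaps it on the other strand.

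CYS3, the cystathionine gamma-lyase that releases cysteine, had 913, 791 and 873 CPM in used low libraries, against 374, 820, 661, 537 and 531 CPM in high libraries. The only overlap was H2_2609 above L2_2709. The log2 fold change of CYS3 was 0.55 with a 95% interval of 0.059 to 1.05 (adjusted p = 0.22, edgeR). MET14, the kinase of adenylylsulfate, had 499, 326 and 439 CPM in used low libraries, against 198, 529, 304, 240 and 303 CPM in high libraries. H2_2609 held the highest MET14 value of these 8, and the log2 fold change was 0.42 with a 95% interval of -0.23 to 1.07 (adjusted p = 0.53, edgeR).

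The other 3 sulfur genes were smaller in difference. CYS4, cystathionine beta-synthase, had a log2 fold change of 0.34 (adjusted p = 0.34, edgeR), MET6 of 0.27 (adjusted p = 0.63) and MET16, the reductase of phosphoadenylylsulfate, of -0.027 (adjusted p = 0.98). The 7 genes together took 0.851%, 0.669% and 0.860% of the counts of the used low libraries, against 0.446%, 0.958%, 0.664%, 0.561% and 0.545% in high libraries. These shares overlapped through H2_2609. Within libraries that share a code, all 7 were higher in L1_2609 than in H1_2609 and all 7 in L2_2709 than in H2_2709, and 6 of 7 in L_2909 than in H_2909, MET16 being the exception. In the left-out low libraries all 7 were also higher than in the high library of the same code. Over all genes tested the low library was the higher in 43.1% to 48.1% of genes, depending on the code.

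**Figure D2:**
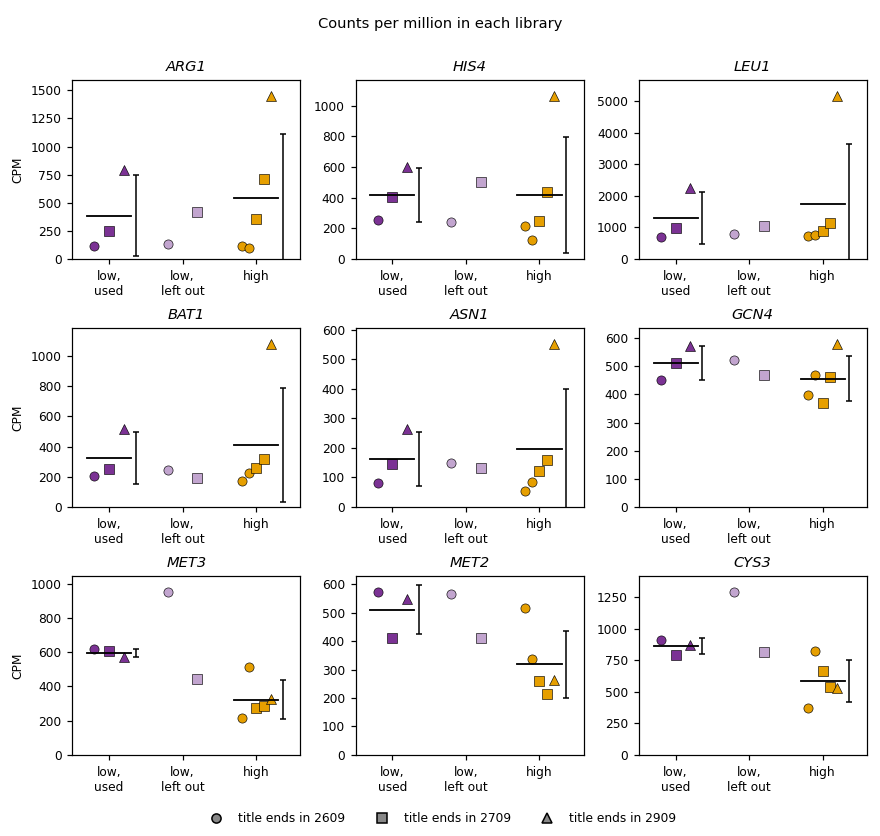
Level in CPM of 9 genes (vertical axis) in the 3 low libraries used, the 2 low libraries left out and the 5 high libraries. Symbols give the ending of the library title, horizontal lines the group mean and vertical bars its SD, stopping at 0 where the SD exceeds the mean. MET3, MET2 and CYS3 sit mostly higher in low, while ARG1, HIS4, LEU1, BAT1 and ASN1 are highest of their groups in L_2909 and H_2909.

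All 6 arginine genes had a negative log2 fold change, of -0.055 to -0.50, and none was called (lowest adjusted p 0.82, edgeR). The sign was not stable, since each of the 6 turned positive in at least 1 of 23 alternative fits, up to 0.050 for CPA1 and 0.41 for ARG4. ARG1, argininosuccinate synthetase, had the largest change of the pathway and the widest spread of the 56 genes over the high libraries. It had 112, 251 and 793 CPM in used low libraries, against 111, 93.8, 358, 711 and 1450 CPM in high libraries, a 15.5-fold range within high. The low libraries lay within that range, with L1_2609, H1_2609 and H2_2609 lowest, and L_2909 and H_2909 highest, of their groups. The left-out low libraries had 132 and 418 CPM. Its log2 fold change was -0.50 with a 95% interval of -2.55 to 1.55.

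The remaining arginine genes had log2 fold changes of -0.30 for ARG3, ornithine carbamoyltransferase, -0.24 for ARG8, acetylornithine aminotransferase, and -0.22 for ORT1, the mitochondrial ornithine transporter. CPA1 stood at -0.16 and ARG4, argininosuccinate lyase, at -0.055. CPA1 did not share the order of libraries seen in ARG1. Its highest value was 1770 CPM in H1_2609, the library with the lowest levels of most other members.

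The 4 histidine genes had log2 fold changes between -0.45 and 0.27. HIS5, histidinol-phosphate aminotransferase, with the largest of them at -0.45 (adjusted p = 0.69, edgeR), had 92.8, 87.9 and 169 CPM in used low libraries, against 99.0, 87.6, 128, 129 and 354 CPM in high libraries. The groups overlapped, and HIS5 in H_2909 stood well above every other library. HIS1, ATP phosphoribosyltransferase at the head of the pathway, stood at 0.27, HIS7, imidazole glycerol phosphate synthase, at -0.16 and HIS4, which catalyses several steps, at 0.0028. HIS4 is given by library because its values stood apart once seen. It had 251, 402 and 603 CPM in used low libraries, against 216, 124, 247, 436 and 1063 CPM in high libraries. The means of HIS4 were thus almost equal, at 419 and 417 CPM, over groups that each spanned a wide range.

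In leucine synthesis, LEU1, isopropylmalate isomerase, had 696, 988 and 2248 CPM in used low libraries, against 723, 746, 894, 1134 and 5161 CPM in high libraries. LEU1 was also chosen for display after its values were seen. Apart from L_2909 and H_2909 the values of LEU1 lay between 696 and 1134 CPM, and without those 2 libraries its log2 fold change was -0.057, against -0.40 with them. LEU4, the main alpha-isopropylmalate synthase, stood at 0.023 (adjusted p = 0.98, edgeR) and is overlapped on the other strand by YNL103W-A. LEU9 had 8.57, 0 and 34.5 CPM in used low libraries, against 14.9, 14.0, 18.4, 23.1 and 49.9 CPM in high libraries. The 0 in L2_2709 allows up to 3 counts, or 0.138 unscaled CPM, and the left-out L1_2709 was also at 0. This limit covers counting error only, and the fitted log2 fold change of LEU9, -0.75 with a 95% interval of -3.25 to 1.76, depends on how that 0 is treated. YOR108C-A overlaps LEU9 on the other strand.

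The isoleucine and valine genes had log2 fold changes of -0.34 to 0.056 and none was called (lowest adjusted p 0.73, edgeR). The 95% intervals were wide, from -1.68 to 1.00 for BAT1 and from -1.11 to 1.22 for ILV3. BAT1, the mitochondrial branched-chain aminotransferase, had 203, 252 and 519 CPM in used low libraries, against 173, 227, 255, 320 and 1080 CPM in high libraries. Its groups overlapped below 519 CPM, and H_2909 alone lay beyond. BAT2, the cytosolic isozyme, ranged only from 210 to 351 CPM over the same 8 libraries and stood at -0.059. ILV1, threonine deaminase, stood at 0.016, ILV2 and ILV6, the catalytic and regulatory subunits of acetolactate synthase, at 0.0033 and -0.23, ILV5, the reductoisomerase, at -0.19, and ILV3, the dehydratase, at 0.056.

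Among lysine genes LYS20, a homocitrate synthase at the first step, had the largest change. It had 148, 121 and 297 CPM in used low libraries, against 57.7, 99.7, 75.3, 107 and 226 CPM in high libraries. Only H_2909 among high libraries reached into the low range of LYS20. The log2 fold change was 0.74 with a 95% interval of -0.24 to 1.71 (adjusted p = 0.43, edgeR), while it was 1.15 without H_2909 (adjusted p = 0.094) and 0.25 without L_2909. LYS21, its isozyme, stood at -0.17. LYS1 and LYS9, the saccharopine dehydrogenases, stood at 0.35 and -0.12, LYS2, alpha-aminoadipate reductase, at -0.21, LYS12, homoisocitrate dehydrogenase, at -0.11 and LYS4, homoaconitase, at 0.024. LYS4, like LYS20, had its highest value of all 10 libraries in L_2909, 203 CPM, against 124 CPM in H_2909.

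All 8 tryptophan and aromatic genes had a negative log2 fold change, with a median of -0.30, and none was called (lowest adjusted p 0.54, edgeR). In the 23 alternative fits TRP4 and ARO1 turned positive at least once, up to 0.0063 and 0.18, while the other 6 remained negative. ARO4, a DAHP synthase at the entry to aromatic synthesis, had 90.1, 135 and 182 CPM in used low libraries, against 87.7, 138, 209, 243 and 301 CPM in high libraries. All 3 low values of ARO4 lay within the span of the high libraries. Its log2 fold change was -0.53 with a 95% interval of -1.38 to 0.32, and the left-out low libraries had 123 and 230 CPM. TRP2, anthranilate synthase, stood at -0.44, TRP3, its bifunctional partner, at -0.36, TRP4, the phosphoribosyltransferase, at -0.28 and TRP5, tryptophan synthase, at -0.15. ARO2, chorismate synthase, stood at -0.31, ARO3, the other DAHP synthase, at -0.23 and ARO1, the pentafunctional enzyme, at -0.063. Genes on the other strand overlap TRP2 (YER090C-A) and TRP4 (YDR354C-A).

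Of the 5 threonine and homoserine genes, 3 stood below 0 and 2 above. HOM3, aspartate kinase, which commits aspartate to this branch, had 256, 190 and 385 CPM in used low libraries, against 176, 199, 191, 163 and 328 CPM in high libraries. The groups of HOM3 overlapped, and its log2 fold change was 0.39 with a 95% interval of -0.22 to 1.00 (adjusted p = 0.53, edgeR). HOM6, homoserine dehydrogenase, was the most even of them, with 457 to 479 CPM in used low libraries and 463 to 668 CPM in high libraries, at -0.32 (adjusted p = 0.30). HOM2, aspartate semialdehyde dehydrogenase, stood at -0.34, THR4, threonine synthase, at -0.24 and THR1, homoserine kinase, at 0.037.

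In serine and one-carbon metabolism SHM2, the cytosolic serine hydroxymethyltransferase, had 563, 519 and 734 CPM in used low libraries, against 237, 359, 380, 445 and 646 CPM in high libraries. Only H_2909 reached into the low range of SHM2. Its log2 fold change was 0.55 with a 95% interval of -0.069 to 1.17 (adjusted p = 0.34, edgeR). SER33, the 3-phosphoglycerate dehydrogenase of higher level, stood at 0.47 (adjusted p = 0.32), and its isozyme SER3 at -0.24. SER3 shares its strand and position with SRG1, a non-coding transcript that reads through it, so its counts are uncertain. SER1, phosphoserine aminotransferase, and SER2, phosphoserine phosphatase, stood at -0.041 and -0.033.

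ASN2, one of a pair of asparagine synthetases, had 264, 215 and 253 CPM in used low libraries, against 198, 373, 288, 320 and 299 CPM in high libraries. Apart from H1_2609, every high library of ASN2 lay above every used low library, and the log2 fold change was -0.28 with a 95% interval of -0.70 to 0.15 (adjusted p = 0.51, edgeR). ASN1, its isozyme, was given by library after its values were seen. It had 81.2, 145 and 263 CPM in used low libraries, against 55.1, 85.8, 123, 158 and 552 CPM in high libraries, at a log2 fold change of -0.26. ASN1 thus ranged widely among high libraries, while the highest value of ASN2 there was 1.88 times its lowest. GLT1, glutamate synthase, stood at -0.25, with its highest value of 1575 CPM in H_2909.

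The second comparison asked how far these genes varied between cultures within a subpopulation. The median SD of log2 CPM over the 3 used low libraries was 0.42 for the 56 members, against 0.31 for all genes tested. It was 0.24 for the 4372 tested genes with a mean of at least 30 CPM. With the left-out libraries, over all 5 low libraries, it was 0.38 for the members, against 0.41 for all genes and 0.32 for those 4372. Over the 5 high libraries it was 0.54 for the members, against 0.25 for all genes and 0.21 for those 4372. Part of this lay in one pair of libraries. L_2909 was the highest of the 3 used low libraries in 42 of 56 members, against 36.8% of all genes tested. H_2909 was the highest of the 5 high libraries in 43 of 56, 76.8%, against 25.3% of all genes. Both held at once in 41 of 56, 73.2%, against 845 of the 6492 genes.

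In L_2909, 12 of 56 members were at least 2-fold above the mean of the other 2 used low libraries, 21.4%, against 11.8% of all genes tested and 3.25% of those with a mean of at least 30 CPM. In H_2909, 26 of 56 were at least 2-fold above the mean of the other 4 high libraries, 46.4%, against 5.02% of all genes. The largest were ARG1 at 2.68 on the log2 scale, LEU1 at 2.59, ASN1 at 2.50, HIS4 at 2.20 and BAT1 at 2.18. Without H_2909 the median SD over the other 4 high libraries was 0.37 for the members. It was 0.23 for all genes and 0.19 for genes with a mean of at least 30 CPM, so the members were still the more spread. At the other end, H1_2609 was the lowest high library in 40 of 56 members, 71.4%, against 24.9% of all genes. The labels do not say what the endings of the titles stand for, and differences between cultures, sorts and preparations cannot be told apart. The strain marker genes HIS3, LEU2 and MET17 stood lowest of their groups in L_2909 and H_2909, and whether this has a part was not tested. The log2 fold change of low over high turned positive without H_2909 in ARG1 (0.28), LEU1 (0.58), BAT1 (0.41) and ASN1 (0.63), with none of them called.

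**Figure D3:**
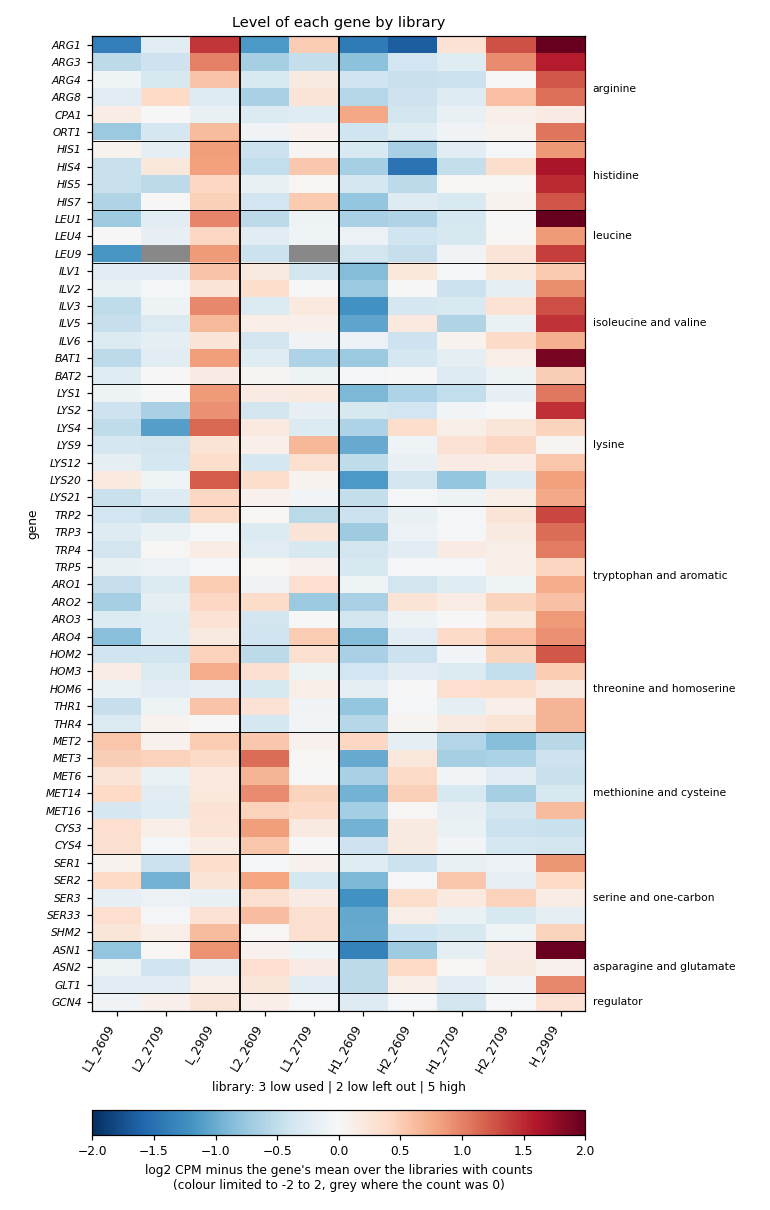
Log2 CPM of each gene (rows, by pathway) in each library (columns: 3 low used, 2 low left out, 5 high), as the difference from the gene's mean over the libraries with counts. Colours are limited to -2 and 2, and grey marks LEU9 at 0 counts. L_2909 is the highest of used low in 42 of 56 genes and H_2909 the highest of high in 43 of 56, while among the 7 methionine and cysteine rows only MET16 has both.

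The pathways took part unequally. The median height of H_2909 over the other high libraries was 1.63 on the log2 scale for histidine, 1.53 for leucine, 1.41 for arginine and 1.27 for isoleucine and valine genes. It was 1.12 for asparagine and glutamate, 0.94 for tryptophan and aromatic, 0.88 for lysine and 0.85 for threonine and homoserine genes. It was 0.53 for serine and one-carbon genes and -0.11 for methionine and cysteine genes. Among the sulfur genes MET16, the one whose window holds TGACTCA, was at 0.92 in H_2909, and the other 6 lay between -0.31 and 0.11. The 48 enzymes outside the sulfur pathway together took 1.23%, 1.27% and 2.11% of the counts of the used low libraries, against 1.04%, 1.38%, 1.38%, 1.62% and 3.03% in high libraries. L_2909 and H_2909 held the highest share of their groups.

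Within codes, the direction between fractions was not the same from pair to pair for these 48 enzymes. They were higher in L1_2609 than in H1_2609 in 37 of 48 and higher in L2_2709 than in H2_2709 in 7 of 48. They were higher in L_2909 than in H_2909 in 7 of 48, with medians of 0.26, -0.32 and -0.47 on the log2 scale in the 3 pairs. In both pairs with a left-out low library, 32 of 48 were higher in low. Over all genes tested the medians of these differences lay between -0.11 and -0.025.

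Members with TGACTCA in the window stood higher in L_2909 and H_2909 than members without it. Their median height over the other libraries of the group was 0.90 in L_2909 and 1.53 in H_2909 on the log2 scale for the 27 with the motif. For the 29 without it, it was 0.33 in L_2909 and 0.53 in H_2909. Both libraries were the highest of their groups in 25 of 27 members with the motif, 92.6%, and in 16 of 29 without, 55.2%. Among the 140 other tested genes with TGACTCA it was 42, and among the 5663 tested genes without it 649. Low over high, the median log2 fold change was -0.23 for the 27 and -0.033 for the 29. Over all 56 members it depended on H_2909, being -0.14 with that library and 0.19 without it. These are counts over genes that share 2 libraries, and no test was made. The exceptions with the motif included ARG8, at -0.35 in L_2909, and ASN2, at 0.058 in H_2909.

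**Figure D4:**
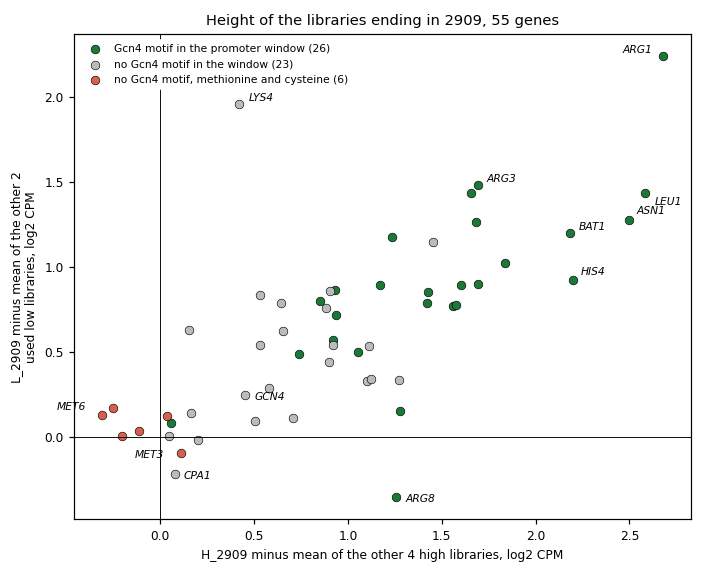
Height of H_2909 over the mean of the other 4 high libraries (horizontal) against height of L_2909 over the mean of the other 2 used low libraries (vertical), in log2 CPM, for 55 genes. LEU9 is left out because L2_2709 had 0 counts. Green marks genes with TGACTCA in the promoter window and red the sulfur genes without it, which sit near 0 on both axes.

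The third comparison set isozymes against each other within a library, which removes library scaling. For 6 pairs the log2 ratio of CPM was compared between the 3 used low and 5 high libraries with an exact permutation test, two-sided, whose smallest possible p is 0.018. LYS20 over LYS21, the homocitrate synthases, was -0.16, -0.63 and -0.0005 in low libraries, against -1.47, -1.14, -1.47, -1.19 and -0.75 in high libraries. Every low ratio lay above every high ratio, and so did those of the left-out low libraries, -0.53 and -0.68. The means were -0.26 ± 0.33 (SD, n = 3) in low libraries and -1.20 ± 0.30 (SD, n = 5) in high ones. The difference was 0.94, with p = 0.018 in the exact permutation test, the smallest it can give, and an adjusted p of 0.11 over the 6 pairs, the lowest that a single separated pair can reach with 3 against 5 libraries. Over all 10 libraries the difference was 0.80 (exact permutation p = 0.0079, before adjustment). The coding sequences of this pair are 88.2% identical, and how reads matching both were counted is not given in the sources used here.

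SER3 over SER33 averaged -1.19 ± 0.22 (SD, n = 3) in low libraries and -0.55 ± 0.35 (SD, n = 5) in high ones, and the overlap came from H1_2609 alone at -1.03. The exact permutation p was 0.054, and 0.16 after adjustment over the 6 pairs. For the other pairs the ratios overlapped widely. ASN1 over ASN2 differed by 0.33 (exact permutation p = 0.71), BAT1 over BAT2 by -0.067 (p = 0.93) and ARO3 over ARO4 by 0.27 (p = 0.30). In both ASN1 over ASN2 and BAT1 over BAT2, L_2909 and H_2909 held the highest ratio of their groups. The ratio of LEU4 over LEU9 cannot be sized where LEU9 is at 0, and its exact permutation p was 0.089.

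**Figure D5:**
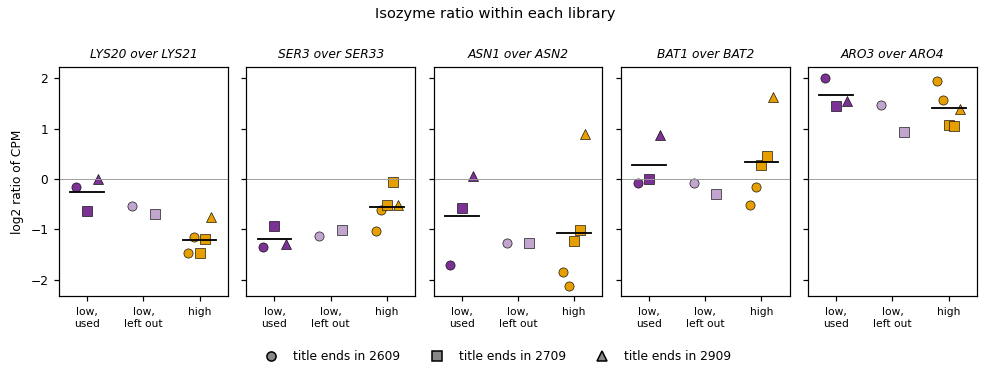
Log2 ratio of CPM of 5 isozyme pairs (vertical axis) in the 3 low libraries used, the 2 low libraries left out and the 5 high libraries. Horizontal bars give the means and symbols the ending of the library title. For LYS20 over LYS21 all low ratios lie above all high ratios, and for ASN1 over ASN2 and BAT1 over BAT2, L_2909 and H_2909 are the highest of their groups.

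Other genes of the same biology were not called by edgeR either. Of 30 further biosynthesis enzymes 0 were called, with a median log2 fold change of 0.0012, of 18 genes that control GCN4 0, of 17 pathway-specific regulators 0, and of 16 other Gcn4 targets 0. The first and the last of these lists share 1 gene, and the second and the last share PCL5. An unadjusted p under 0.05 in edgeR was found in 1143 of the 6492 genes tested. Among them were 1 of the 30 further enzymes, 0 of the 18 genes that control GCN4, 2 of the 17 regulators and 1 of the 16 other targets, of which DESeq2 called 1. Chosen after their values were seen, these were ALT1, alanine transaminase, at a log2 fold change of 0.73 (called by DESeq2), MET31, a zinc-finger activator of the sulfur pathway, at 0.63, MET30, the ubiquitin ligase subunit that inhibits Met4, at 0.36, and PDX3 at -0.34. H_2909 was the highest high library in 22 of 30 further enzymes, in 15 of 16 other Gcn4 targets and in 9 of 17 regulators, but in 3 of 18 genes that control GCN4. The median height over the other high libraries was 0.57, 0.96, 0.26 and -0.26 on the log2 scale in the same 4 lists.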

How the data were processed

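Messenger RNA of sorted cells was selected by poly-T capture and sequenced in paired ends. Per the study's methods, the authors filtered reads on adaptors, uncertain bases and quality and aligned what remained by HISAT2, taking genome and genes from Ensembl. The aligner version, the counting tool and the strand setting are not given in the sources used here. The deposited table held counts per gene, as whole numbers without normalization, and FPKM that the authors computed from them. Every sample column of the table was used. FPKM served for levels between genes and counts for all tests.

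Low and high libraries were compared in R 4.3.3 with edgeR 4.0.16 (filterByExpr, TMM scaling, glmQLFit and glmQLFTest), over the 8 libraries that the study used, with p-values adjusted by Benjamini and Hochberg's method over 6492 genes and called under 0.05. The biological coefficient of variation was 0.355. CPM are TMM-scaled, and a log2 fold change is low over high. Isozyme ratios were compared by exact permutation of libraries. Alternatives numbered 23, with limma 3.58.1 and DESeq2 1.42.0 among the tools and 8 that left out 1 library each. The fit without both L_2909 and H_2909 was chosen after seeing the data. The fitting code was tested on simulated data.

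Members and gene lists were chosen with earlier results of these data known. All 56 members are named. Values by library are given for GCN4, for members called by edgeR over 8 or 10 libraries, by DESeq2 or with the replicate block, and for the largest change of each pathway. Those of HIS4, LEU1 and ASN1 were added after seeing values. The title codes were taken to pair the 8 libraries, because deviations of same-code libraries correlated at 0.266, 0.101 and 0.289 over 4372 genes with a mean of at least 30 CPM, each over 0.1, although the second only just. H2_2609 and H1_2709 had no low partner among the 8. Apart from the fits with a block, neither the fits nor the exact permutation tests used this pairing. Over all 10 libraries the lowest of 5 correlations was 0.0162, so the codes did not pair them. No libraries were duplicates, the most alike pair (H1_2709 and H2_2709) with a chi-square over its degrees of freedom of 36.4. P-values measure the spread between these samples, and the sources do not say for each whether it was a separate culture. Promoter windows were read from the R64 RefSeq genome, where all 56 coordinates matched and each coding region began with ATG.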

Additional observations from a re-analysis of the deposited data

Results flagged for a closer look

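In each group of 5 libraries the highest and lowest library of every member was compared with the rest by Dixon's test (the gap to the next library over the whole range, above the critical value for 5). Of 112 groups tested 25 were marked, where chance marks about 1 in 20 groups, and the genes share libraries. In the low group L_2909 stood far above the others in 6 genes, with ARG3 at 126.9 CPM, LEU1 at 2248, BAT1 at 519.0, LYS1 at 412.4, LYS2 at 347.4 and LYS20 at 297.2 CPM. In the left-out low library L2_2609, CYS3 stood far above the rest at 1289 CPM.

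In the high group H_2909 stood far above the others in 17 genes. Among arginine and histidine genes these were ARG4 at 1573 CPM, ORT1 at 163.3, HIS1 at 393.1, HIS5 at 353.7 and HIS7 at 234.8 CPM. Among branched-chain genes they were LEU1 at 5161 CPM, LEU4 at 1587, LEU9 at 49.9 and BAT1 at 1080 CPM. LYS1 stood at 477.7 CPM, LYS2 at 509.7, TRP2 at 264.9, TRP4 at 173.2, ARO1 at 429.5, HOM3 at 328.3, SER1 at 487.7 and ASN1 at 552.2 CPM. In H1_2609, SER3 was far below the other high libraries at 109.2 CPM. LEU1, BAT1, LYS1 and LYS2 were marked in both L_2909 and H_2909. No cause was tested.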

How the results depend on the processing

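The count of members called was 0 in the fit reported, 1 with DESeq2, 1 over all 10 libraries, 1 with the replicate block over 8 libraries and 4 with the replicate block over all 10 libraries, where the codes did not pair all libraries. Leaving out 1 library at a time it ranged from 0 to 1, being 1 without H1_2609 (MET2) and without H2_2609 (MET3). Over all genes the count was 335, but 677 with DESeq2, 222 with a minimum mean of 10 CPM, 226 over all 10 libraries, 97 with the replicate block, 113 without H1_2709, 119 without H2_2709 and 211 without H2_2609. The median log2 fold change of the members was -0.14 and ranged from -0.34 without L_2909 to 0.19 without H_2909. Upper-quartile scaling moved the number of positive members to 14, against 20. Of the 56 members, 22 kept 1 sign over all 24 fits.

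Ratios of isozymes changed sign where they were near 0. ASN1 over ASN2 differed by 0.33, by -0.0788 with the replicate block and by -0.0698 to 0.816 leaving out 1 library. BAT1 over BAT2 differed by -0.07, and by -0.37 to 0.25 leaving out 1 library. The difference in LYS20 over LYS21 was 0.93 without both L_2909 and H_2909, where the smaller number of libraries allows no lower p than 0.067 in the exact permutation test. Leaving out 1 library it was 0.81 to 1.13, and the exact permutation p was 0.057 without H1_2609, without H2_2609, without H1_2709 and without H2_2709. That in SER3 over SER33 was -0.60 over all 10 libraries, with p = 0.024 in the exact permutation test. Leaving out 1 library it ranged from -0.77 to -0.52. The cause of these shifts was not tested. Counting without a stated strand limits LEU4, LEU9, TRP2, TRP4 and MET2, while SER3 is limited by SRG1 on its own strand.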
